A study of Rattus norvegicus with 4 samples.

Results

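Small heat shock proteins are the family of low-molecular-weight chaperones that share an alpha-crystallin domain. The genes followed here were Hspb1, Hspb2, Hspb3, Hspb6, Hspb7, Hspb8 and Cryab, and every probe set annotated to one of these 7 symbols, alone or together with another gene, was taken. Of the 7 genes, 4 were represented, among 5147 gene symbols on the array. That gave 11 of the 8740 probe sets (the groups of short probes that each read 1 transcript or a set of similar ones) left on the Affymetrix rat array once its control spots were set aside. Hspb1 had 4 probe sets of its own and 1 annotated to both Asb2 and Hspb1, and Hspb2, Hspb6 and Cryab had 2 each. None was annotated to Hspb3, Hspb7 or Hspb8, which were not analysed here. RNA came from whole soleus, the slow postural calf muscle, of female rats. The unloaded rats could not stand on their hindlimbs during 10 h per day for 11 days (2 pools), and the control rats kept normal cage activity (2 pools). Each pool combined soleus RNA from 4 to 5 rats and was read on 1 array, so that n = 2 per group counts pools, not animals. The sources used here give neither strain nor age, nor the interval between the last unloading bout and sampling. Nothing in the labels links equal pool numbers across groups. All p-values rest on the spread between pools, which the limma fit takes in part from other tested probe sets, and not on that between animals.

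Small heat shock proteins bind partly unfolded proteins without using ATP and hold them in large oligomers until ATP-driven chaperones such as HSP70 refold them. In striated muscle they sit on actin, desmin filaments, titin and the Z-disc, and several are phosphorylated during contraction and stress. Hspb1 and Cryab are heat-inducible through heat shock factor HSF1, which binds alternating GAA and TTC units in DNA, whereas Hspb2 is known mainly as a muscle-restricted member that binds the myotonic dystrophy kinase.

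Signals are the deposited intensity values, and log2 fold changes are unloaded minus control on the scale log2(signal + 9) with their standard error (SE). Adjusted p-values come from limma with Benjamini-Hochberg adjustment over the 5257 probe sets whose mean over the 4 arrays reached 21.0. The call threshold was 0.05. All 11 probe sets of the family passed this filter on signal. Trimmed mean signals were 150.2 or 150.3 on the 4 arrays, and median signals were 34.9 and 33.9 on the unloaded arrays and 35.6 and 34.6 on the control arrays. Of 10 listed slow-fibre markers 7 were measured, and the slow myosin gene Myh7 read 9534 and 10728 in the unloaded pools and 10907 and 11198 in the control pools. Summed signals of the measured slow-fibre markers were 35893 and 39555 in unloaded pools and 38218 and 37214 in control pools, so the defining markers of this tissue were present on every array.

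Hspb1 was lower in the unloaded soleus, and 3 of its 5 probe sets passed the test, the one shared with Asb2 included. Hspb2 lay below control in both unloaded pools on both of its probe sets without passing. Hspb6 and Cryab differed little between groups. In all, 3 of the 11 probe sets passed, each with the lower signal in unloaded pools, where 2.66% of all tested probe sets passed in that direction. None passed upward, against 2.59% of all tested probe sets. At an unadjusted p under 0.05, 7 of the 11 were lower and 0 higher, where 20.8% of all tested probe sets passed in either direction. The 3 that passed are all annotated to Hspb1, 1 of them also to Asb2, and cannot be taken as independent of each other. The 11 probe sets stand for only 4 genes of the family, so the other counts and the median do not rest on independent readings either. The median log2 fold change of the 11 probe sets was -0.32, within a range of -0.60 to 0.02, and that of all tested probe sets was 0.00.

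**Figure D1:**
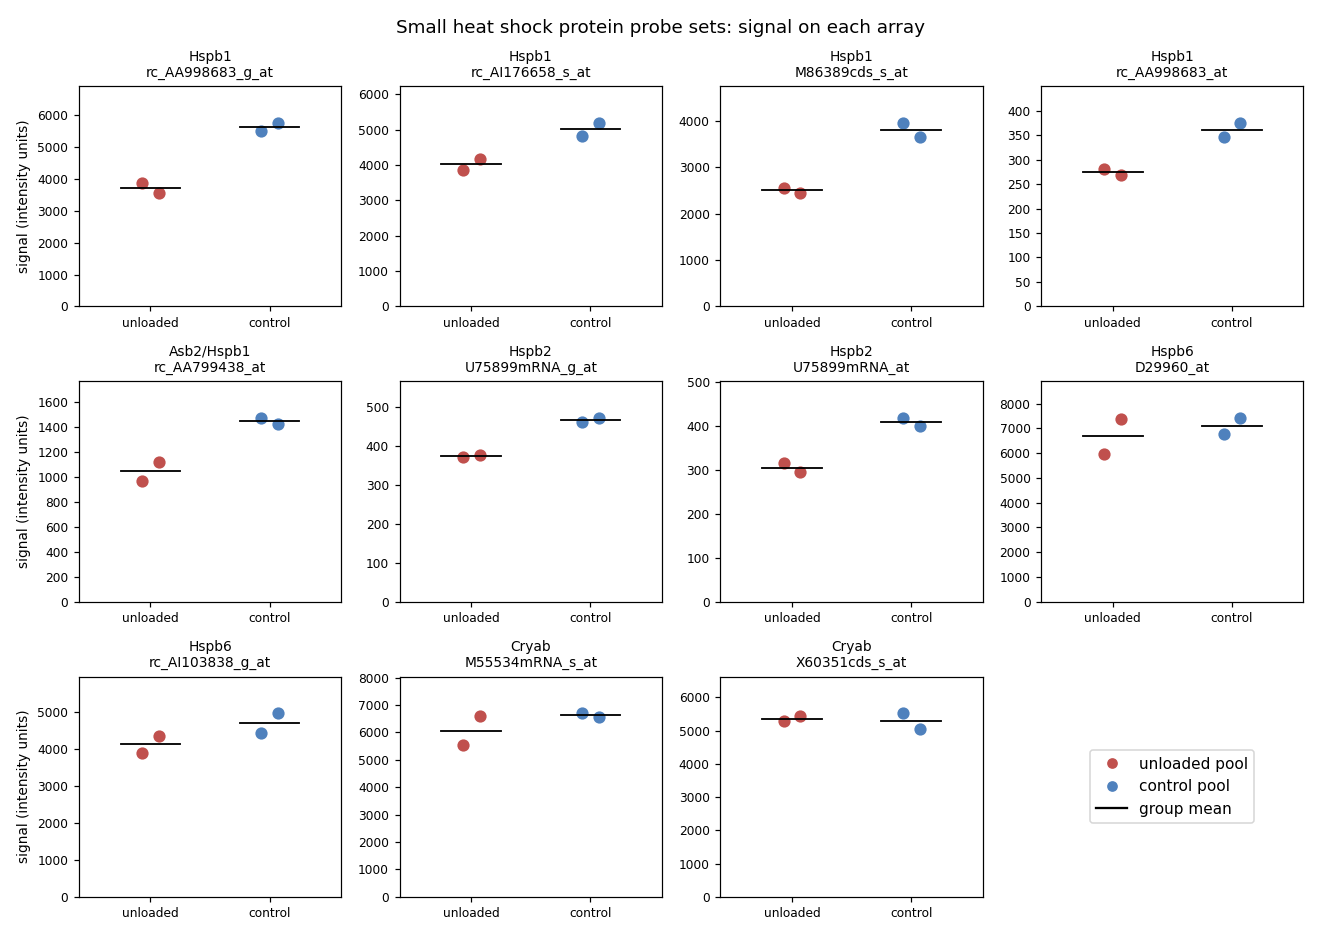
Deposited signal in intensity units (vertical axes, each starting at 0) for the 11 probe sets, 1 panel each, with unloaded pools left and control pools right. Points are the 2 pools of a group and bars the group mean. Both unloaded points lie below both control points in all 5 Hspb1 panels (Asb2/Hspb1 included), in both Hspb2 panels and, by a narrow margin, in 1 Hspb6 panel.

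Hspb1 encodes the actin-binding chaperone also called HSP25 or HSP27, on rat chromosome 12. On its brightest probe set, rc_AA998683_g_at, signals were 3857 and 3546 in the unloaded pools, against 5494 and 5754 in the control pools. Every unloaded value was below every control value, and the lower control pool stood 42.4% above the higher unloaded pool. The means were 3701 ± 220.0 in unloaded and 5624 ± 184 in control pools (SD, n = 2 pools each), a ratio of 0.658. The log2 fold change was -0.60 (SE 0.09, limma adjusted p = 0.00886).

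A second Hspb1 probe set, M86389cds_s_at, read 2558 and 2440 in the unloaded pools and 3952 and 3655 in the control pools. Its ratio of means was 0.657, close to that of the brightest one although it was designed on another sequence record. Its log2 fold change was likewise -0.60 (SE 0.09, limma adjusted p = 0.00886). The groups again stood apart.

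The other Hspb1 probe sets gave smaller differences in the same direction. Signals of rc_AI176658_s_at were 3869 and 4167 in unloaded pools, against 4827 and 5194 in control pools, a ratio of 0.802. This probe set did not pass (log2 fold change -0.32, SE 0.09, limma adjusted p = 0.0901). The dimmest Hspb1 probe set, rc_AA998683_at, had 280.7 and 268 in unloaded pools and 346.6 and 374.8 in control pools, and did not pass either (-0.38, SE 0.10, limma adjusted p = 0.0821). It comes from the same sequence record as the brightest one, so these 2 readings share a target. Neither of the 2 had overlapping groups, and their 95% intervals (-0.52 to -0.11 and -0.62 to -0.14) overlapped that of the brightest probe set (-0.81 to -0.40).

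The shared probe set rc_AA799438_at is annotated to Hspb1 and to Asb2, the substrate receptor of a muscle ubiquitin ligase that acts on filamins. It read 964.1 and 1121 in unloaded pools, against 1470 and 1422 in control pools, with no overlap. It passed narrowly (-0.47, SE 0.10, limma adjusted p = 0.0399) and in 4 of 12 alternatives. The call was lost with median scaling (limma adjusted p = 0.0574) and with the pool number as a block (0.0708), among others. Asb2 had no other probe set, so its part in this signal was not tested. With the 4 Hspb1 probe sets averaged and the whole table fitted by gene, over 3157 genes, the Hspb1 log2 fold change was -0.48 (SE 0.08, limma adjusted p = 0.00944).

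**Figure D2:**
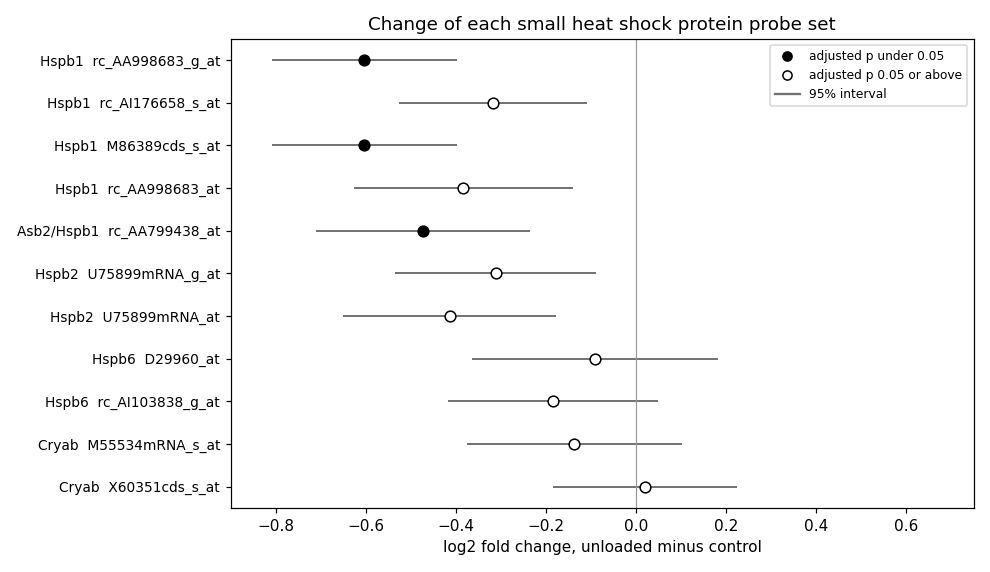
Log2 fold change, unloaded minus control, of each of the 11 probe sets (horizontal axis) with its 95% interval from the limma fit. Filled points passed at an adjusted p under 0.05. The 3 filled points, 2 of Hspb1 and the one shared with Asb2, lie between -0.60 and -0.47, and the 4 intervals of Hspb6 and Cryab span 0.

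The 5 probe sets of Hspb1 kept the direction of their change in every fit run, while their calls were lost in several. Without unloaded pool 1, rc_AA998683_g_at and M86389cds_s_at still passed and the shared probe set did not. Without unloaded pool 2, control pool 1 or control pool 2, none of the family passed. Their log2 fold changes over these 4 fits ran from -0.66 to -0.54 for rc_AA998683_g_at and from -0.66 to -0.55 for M86389cds_s_at, with adjusted p of at most 0.107. No call of the family held without the filter on dim probe sets or without the mean-variance trend.

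**Figure D3:**
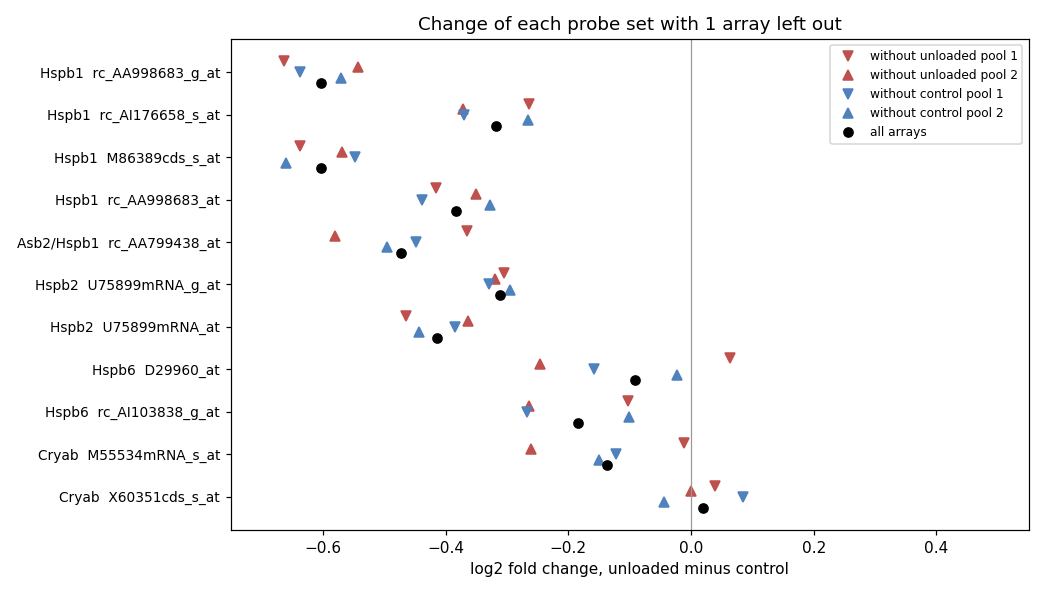
Log2 fold change, unloaded minus control (horizontal axis), of each probe set with all 4 arrays (black circles) and with 1 array left out (triangles, coloured by the group of the array left out). The triangles of the Hspb1, Asb2/Hspb1 and Hspb2 probe sets stay between -0.66 and -0.26, and those of Cryab X60351cds_s_at and Hspb6 D29960_at fall on both sides of 0.

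The 300-base window around the RefSeq start of Hspb1 is shown with that of Hspb6 because both genes were measured and both windows hold pairs of the units that HSF1 binds. Whether these units have a part in the readings of either gene was not tested. Each runs 5′ to 3′ on the strand of its gene in the rat build GRCr8, from 250 bases before to 50 bases after the start. Capitals mark GAANNTTC, TTCNNGAA and, on the strand of the gene, TATAAA. Hspb1 lies at chr12:26432252-26432551 (minus strand) and Hspb6 at chr1:94934122-94934421 (plus strand).
Hspb1: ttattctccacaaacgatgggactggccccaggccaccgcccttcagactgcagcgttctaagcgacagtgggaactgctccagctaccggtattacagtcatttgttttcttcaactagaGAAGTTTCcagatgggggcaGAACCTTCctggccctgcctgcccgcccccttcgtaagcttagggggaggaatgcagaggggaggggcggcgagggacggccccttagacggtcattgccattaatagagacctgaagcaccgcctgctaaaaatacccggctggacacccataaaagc
Hspb6: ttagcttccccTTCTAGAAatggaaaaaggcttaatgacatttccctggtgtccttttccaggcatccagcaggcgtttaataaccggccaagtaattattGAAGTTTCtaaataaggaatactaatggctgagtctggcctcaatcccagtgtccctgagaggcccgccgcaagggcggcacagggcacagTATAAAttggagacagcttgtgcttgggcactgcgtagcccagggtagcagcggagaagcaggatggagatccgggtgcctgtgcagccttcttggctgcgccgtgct

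The Hspb1 window held GAANNTTC at 2 places, which start at -129 and -109 relative to the gene start. The Hspb6 window held TTCNNGAA at -239, GAANNTTC at -149 and TATAAA at -58. Both paired units read the same on either strand. One or the other occurred in 15.9% of the 33469 RefSeq promoter windows of this length, and TATAAA, sought on both strands, in 14.2%. A run of 3 alternating GAA and TTC units at the same spacing, on either strand, occurred in 0.795% of windows and in neither of these. Of 7 genes of the family 5 matched a promoter entry, and of the unmeasured ones Hspb8 held 1 GAANNTTC. Hspb2 and Cryab had no promoter entry and are named only.

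Hspb2, the partner and activator of the myotonic dystrophy kinase DMPK in human muscle, had 2 probe sets made from 1 sequence record. On U75899mRNA_g_at signals were 372.1 and 376.1 in unloaded pools and 460.9 and 472.2 in control pools. On U75899mRNA_at they were 315.6 and 293.6 in unloaded pools, against 417.3 and 400.1 in control pools. Both unloaded pools were below both control pools on each, with ratios of means of 0.802 and 0.745. Neither passed, with log2 fold changes of -0.31 (SE 0.10, limma adjusted p = 0.118) and -0.41 (SE 0.10, limma adjusted p = 0.0596). Their mean gave -0.36 for the gene (SE 0.09, limma adjusted p = 0.0562, 95% interval -0.57 to -0.15). With only probe sets above the 60th percentile of mean signal tested, U75899mRNA_at passed (limma adjusted p = 0.0353).

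Hspb6, or HSP20, is a partner of actin-based contraction that cyclic nucleotide-dependent kinases phosphorylate. D29960_at read 5970 and 7394 in unloaded pools, against 6754 and 7418 in control pools. The groups overlapped, and the spread between the unloaded pools (SD 1007) exceeded the difference between the group means of 6682 in unloaded and 7086 in control pools. On rc_AI103838_g_at the values were 3912 and 4375 in unloaded pools, against 4436 and 4980 in control pools. These groups did not overlap, but the gap between them was 1.40% of the higher unloaded value. Neither probe set passed, at -0.09 (SE 0.12, limma adjusted p = 0.727, 95% interval -0.36 to 0.18) and -0.18 (SE 0.10, limma adjusted p = 0.341, 95% interval -0.41 to 0.05). Without unloaded pool 1 the change of D29960_at turned to 0.06.

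Cryab encodes alphaB-crystallin, which binds desmin and titin and is abundant in slow fibres. M55534mRNA_s_at had signals of 5534 and 6581 in unloaded pools, against 6698 and 6572 in control pools, so unloaded pool 2 lay between the control pools. X60351cds_s_at had 5283 and 5431 in unloaded pools, against 5525 and 5053 in control pools, with both unloaded pools inside the control range. The log2 fold changes were -0.14 (SE 0.10, limma adjusted p = 0.513, 95% interval -0.37 to 0.10) and 0.02 (SE 0.09, limma adjusted p = 0.937, 95% interval -0.18 to 0.22). Both intervals leave out the change of -0.60 seen on 2 Hspb1 probe sets, but that of M55534mRNA_s_at holds the -0.32 of rc_AI176658_s_at. The annotated spans of Hspb2 and Cryab on rat chromosome 8 share 1331 bases in GRCr8, and whether their probe sets cross-read was not tested.

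By mean signal D29960_at ranked 13 and M55534mRNA_s_at 17 among the 8740 probe sets, and whether signals this high still register a change was not tested. Among the 100 brightest probe sets, the median log2 signal relative to the 4-array mean was -0.08 on unloaded array 1 and 0.07 on unloaded array 2, against -0.02 and 0.03 on the control arrays. Unloaded pool 1 also had the lowest signals of Hspb6 on both probe sets and of Cryab on M55534mRNA_s_at. With quantile normalization, which gives all arrays the same distribution of signals, Hspb6 and Cryab had no probe set past the threshold. In that fit 4 probe sets of the family passed, the added one being rc_AI176658_s_at of Hspb1 (-0.30, limma adjusted p = 0.0395). Whether the shifts of the brightest probe sets have a part in the Hspb6 and Cryab readings was not tested.

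**Figure D4:**
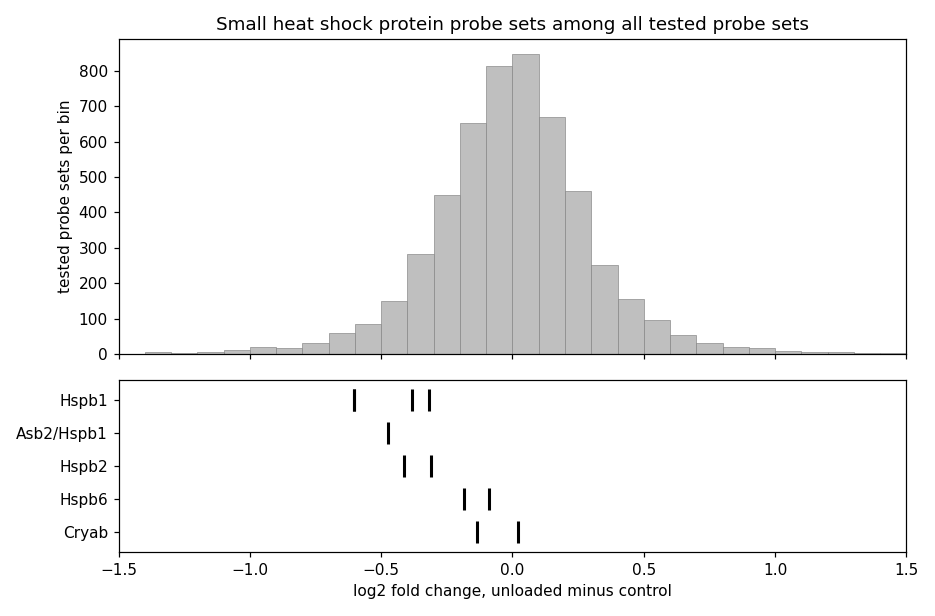
Top, number of tested probe sets per bin of 0.1 in log2 fold change, unloaded minus control, shown from -1.5 to 1.5. Bottom, the values of the small heat shock protein probe sets on the same axis, 1 tick each (2 Hspb1 ticks coincide at -0.60). Hspb1 and Hspb2 ticks lie in the left flank of the distribution and those of Hspb6 and Cryab near its centre.

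Both unloaded pools lay below both control pools on 8 of the 11 probe sets, where 25.3% of all tested probe sets did so. All probe sets of Hspb1 and Hspb2 were among the 8. Probe sets of the same gene repeat a reading, so this count is not one of independent members. None had both unloaded pools above both control pools, against 25.5% of all tested probe sets. Among all tested probe sets, 3.35% to 12.3% had a log2 fold change as low as or lower than those of the Hspb1 probe sets, the shared one included. The share was 7.32% and 12.6% for the Hspb2 probe sets, 23.3% and 35.3% for those of Hspb6, and 29.1% and 53.1% for those of Cryab. Each of these ranks describes a single reading and is not a test.

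The members' changes were also set against each other within arrays, on the brightest probe set of each gene and over 6 pairs of genes. The Hspb1 change was below that of Cryab by -0.47 (SE 0.19, from the spread of the 2 pools per group) on the log2 scale. The per-array log2 difference, Hspb1 minus Cryab, was -0.52 and -0.89 in unloaded pools, against -0.29 and -0.19 in control pools. Hspb1 differed from Hspb6 by -0.51 (SE 0.22) and from Hspb2 by -0.29 (SE 0.07). For these 3 pairs the unloaded and control arrays did not overlap. The same held for Hspb2 against Hspb6 (-0.22, SE 0.16) and Hspb2 against Cryab (-0.18, SE 0.12). Hspb6 and Cryab differed by 0.05 (SE 0.09), with overlapping groups. With 2 arrays against 2, the two-sided exact permutation p was 0.333 for the 5 pairs without overlap, which is the smallest that test can give here, and 1 for Hspb6 against Cryab. The 6 pairs reuse the same probe sets and are not independent, and how often other pairs of genes stand apart was not computed. No other test of these differences was run. The sizes depended on the probe set taken. With the mean over the probe sets of each gene, an alternative chosen after seeing the data, Hspb1 differed from Cryab by -0.42, from Hspb6 by -0.34 and from Hspb2 by -0.11. In that setting Hspb2 differed from Cryab by -0.30 and from Hspb6 by -0.23, and the difference of Hspb6 from Cryab turned to -0.079. The second-brightest Hspb1 probe set (-0.32) had nearly the change of the brightest Hspb2 one (-0.31).

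Other chaperones were read from a list of 54 genes, of which 28 had a tested probe set with a single symbol, the brightest one standing for the gene. Of these 28, 5 fell, 1 rose and 22 did not pass, against 2.15% of 3157 genes called lower and 2.53% called higher. At an unadjusted p under 0.05, 14 of the 28 passed, most of them lower, against 20.8% of all tested probe sets in either direction. The list median was -0.23, and that of all 3157 genes 0.01. Besides the inducible HSP70 gene Hspa1a (-2.57, SE 0.17), the genes that fell were the collagen chaperone Serpinh1 (-0.79, SE 0.18) and the HSP40 cochaperones Dnaja1 (-0.68, SE 0.13), Dnajb1 (-0.75, SE 0.12) and Dnajb5 (-1.06, SE 0.13). Dnajc5, a cochaperone of secretory vesicles, rose (0.56, SE 0.12), but averaged over its probe sets it gave 0.16 and did not pass (limma adjusted p = 0.590), nor did it pass with quantile normalization (0.0518) or any array left out. Limma adjusted p ranged from 1.9e-04 for Hspa1a to 0.0493 for Serpinh1. Hsf1, the factor itself, gave -0.08 (SE 0.11, limma adjusted p = 0.742), from 229.1 and 261.5 in unloaded pools and 259.1 and 260.9 in control pools. Between 1 and 2 of the 28 genes passed with 1 array left out, each lower.

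**Figure D5:**
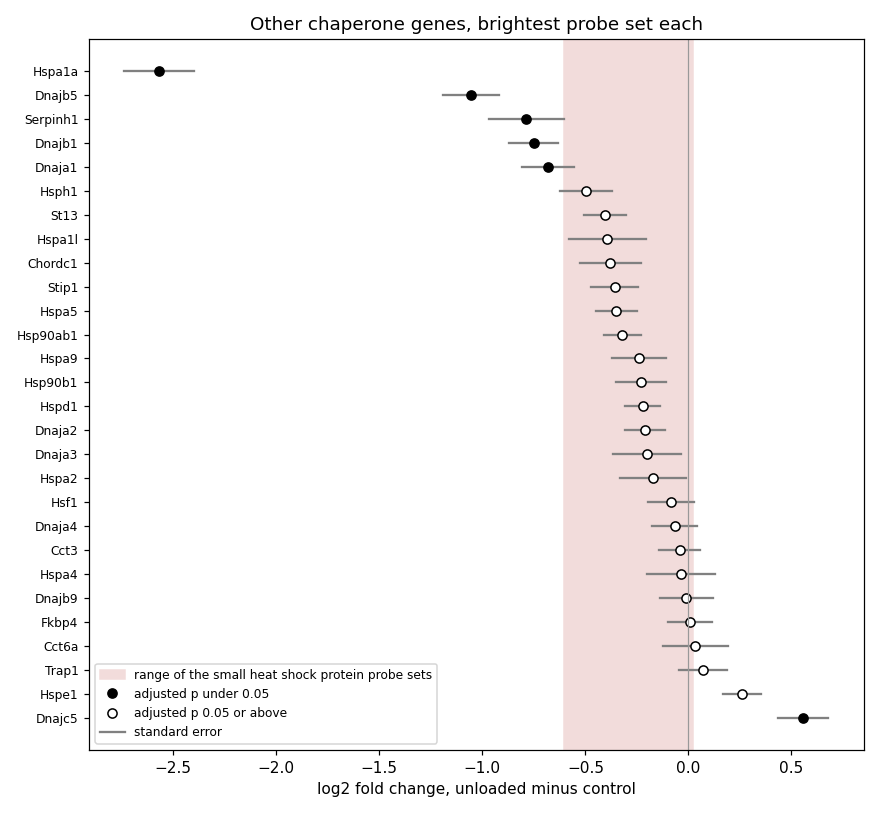
Log2 fold change, unloaded minus control, with its standard error, for the 28 measured genes of the chaperone list (1 probe set each). Filled points passed at an adjusted p under 0.05. The shaded band is the range of the 11 small heat shock protein probe sets, -0.60 to 0.02; the 5 genes that fell lie to its left and Dnajc5, which rose, to its right.

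Proteins that small heat shock proteins bind or guard were read from a list of 28 cytoskeletal and Z-disc genes, and none of the 16 measured passed (median 0.00). Des, the desmin gene, read 4067 and 4266 in unloaded pools and 4150 and 4157 in control pools. The filamin gene Flnc gave 0.04 (SE 0.09) and the Z-disc actinin gene Actn2 0.03 (SE 0.09), and the smallest p belonged to the cytoplasmic actin Actg1 (-0.39, SE 0.10, limma adjusted p = 0.0776). In the p38 kinase pathway, whose last step phosphorylates Hspb1, none of 5 measured genes passed. The kinase of that last step, Mapkapk2, had 553.2 and 516.3 in unloaded pools and 406.8 and 436.1 in control pools (0.34, SE 0.10, limma adjusted p = 0.108). Of 16 listed genes of chaperone-assisted autophagy 6 were measured, and Bag3, Stub1, Hspa8, Synpo2 and Sqstm1 were not among them. None of the 6 passed, the largest difference being that of Becn1 (0.35, SE 0.13, limma adjusted p = 0.167). At an unadjusted p under 0.05, 5 of the 16, 1 of the 5 and 1 of the 6 genes of these lists passed, against 20.8% of all tested probe sets. Among the 16, Plec (0.27) and Tcap (0.30) were those higher, and Actg1, Ldb3 (-0.24) and Tubb5 (-0.23) those lower.

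Fibre and cell markers were read beside these results. Of 11 measured fast-fibre markers 6 passed, all higher, where 2.53% of 3157 genes were called higher and 2.15% lower. The 5 that did not pass ran from -0.14 (Pvalb) to 0.19 (Casq1), and the list median was 0.46. Summed signals of the fast-fibre list were 20387 and 20597 in unloaded pools, against 15221 and 13938 in control pools. Among slow-fibre markers 1 of 7 passed, lower (median -0.01). None of 5 smooth muscle, 3 endothelial, 4 adipocyte, 2 leukocyte, 2 blood, 2 Schwann cell and 5 fibroblast markers passed by limma. At an unadjusted p under 0.05 there were 1 smooth muscle, 2 adipocyte, 2 blood and 1 fibroblast marker. Of these the adipocyte marker Cfd was lower (-0.61, SE 0.19) and the others higher. The share of all tested probe sets at that threshold was 20.8% in either direction. Of 5 cardiac muscle markers only Actc1 passed, lower (-1.03, SE 0.21). Under the unadjusted threshold there were 2, the other being Myh6, which was higher (0.24, SE 0.09). Its probe set read 6330 and 6525 in unloaded pools and 5786 and 5130 in control pools. Whether the Myh6 and Myh7 probe sets also read other myosin genes was not tested. No marker probe set was at 0 on any array. The part of fibre composition in the Hspb1 result was not tested, and in whole muscle fewer cells of a type and less RNA per cell cannot be told apart.

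By the distance between log2 profiles, each centred on its own mean over the 4 arrays, the 5 genes closest to the brightest Hspb1 probe set were Tfpi (0.02), LOC102549726 (0.06), Eef1a1 (0.08), Dctn4 (0.08) and Klf6 (0.09). Their log2 fold changes ran from -0.65 to -0.57, and those of LOC102549726 and Klf6 passed. Each was the nearest probe set of its gene, not chosen as the brightest, and need not stand for the gene. Tfpi read 20.8 and 18.3 in unloaded pools, against 33.9 and 35.7 in control pools. The Eef1a1 probe set was also dim, at 29.4 and 24.1 in unloaded pools and 42 and 46 in control pools. The genes closest to Hspb2 on U75899mRNA_g_at were Scarb2, Or6a2, Camk1, Pmpca and Lims1, at distances of 0.02 to 0.03, none of which passed. For D29960_at of Hspb6 they were Cox6a2, Hsd17b4, Prune2, Rabep2 and Lmod3 (0.02 to 0.04), and for M55534mRNA_s_at of Cryab they were Prkaca, Vipr1, Rxra, Gpam and Pisd (0.03 each). With 4 arrays in 2 groups, such a distance reflects little beyond the size of the change and the order of the pools.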

How the data were processed

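Soleus RNA pools were read on Affymetrix arrays. The deposited values are linear intensity signals, 1 for each probe set on each array, which the authors made with MAS5 per the submitters' processing notes (no version stated). Equal trimmed means (2% left out at each end) point to per-array scaling; neither detection calls nor scan batches were used, and such a scale assumes like total mRNA signal in both groups. Of 8799 probe sets, 59 controls were left out. Symbols came from the platform annotation, updated by gene ID to RefSeq (GRCr8), giving 7017 probe sets with 1 symbol, 297 with several and 1426 with none. Signals were taken as log2(signal + 9), 9 being the 25th percentile, which understates changes of dim transcripts. Those whose mean signal reached the 40th percentile (21.0) were fitted with limma 3.58.1 in R 4.3.3 (lmFit, eBayes with trend, 2 residual and 5.80 prior degrees of freedom). Genes outside the family were named from fixed lists, up to 6 per list with the smallest p, marker lists, and the 5 nearest profiles per member; Des, Flnc, Actn2 and Hsf1 were named for their roles after their values were seen. The members, lists and tests were chosen with earlier results of these data known. The fit and the motif search were run on simulated data with planted changes or motifs, as a check of the code and not of the calls reported here. Alternatives were other normalizations, offsets and filters, no trend, a pool block, leaving out each array, and gene means. Same-numbered pools did not deviate together (correlation -0.04). Figures used matplotlib 3.10.9 in Python 3.11.15.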

Additional observations from a re-analysis of the deposited data

How the results depend on the processing

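The number of probe sets of the family that passed was 3, and 2 to 4 passed with quantile normalization, median scaling, other offsets, a filter at the 60th percentile or the pool number as a block. None passed without a filter on dim probe sets or without a mean-variance trend (0 of 11 by limma in each, with 7 of 11 at an unadjusted p under 0.05), 0 to 2 passed with 1 array left out, and fitted by gene 1 gene of 4 passed. Of all 5257 probe sets tested, 276 passed, against 90 without a filter, 113 without a trend and 165 with the block, and 67 to 84 with 1 array left out. Of the chaperone list 6 genes passed, against 3 without a filter, without a trend and with the block, and 1 to 2 with 1 array left out. Fewer arrays leave fewer residual degrees of freedom; the cause of the other losses was not tested. Of 132 single readings of the 11 probe sets under 12 alternatives each, 129 kept the sign of their change and 3 turned. These were D29960_at of Hspb6 without unloaded pool 1 (0.063) and X60351cds_s_at of Cryab without unloaded pool 2 (-0.00028) and without control pool 2 (-0.045). With 1 array left out, D29960_at ran from -0.245 to 0.063 and X60351cds_s_at from -0.045 to 0.084. With the pool number as a replicate block 2 of the 11 probe sets passed, the one shared with Asb2 being lost (adjusted p = 0.0708). Differences between members kept their sign under other offsets, quantile normalization and median scaling. With the mean over the probe sets of each gene, chosen after seeing the data, Hspb6 minus Cryab turned (-0.079, against 0.045) and Hspb1 minus Hspb2 shrank to -0.11, against -0.29. The number of arrays limits precision throughout.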
